A study of Danio rerio with 3 samples.

Results

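The genes described here encode the machinery that builds ribosomes and the factors that run translation in zebrafish (Danio rerio). They were chosen by symbol. A fixed set of prefixes took the initiation factors (eif), the elongation and termination factors (eef, etf1), the cytosolic aminoacyl-tRNA synthetases, the subunits of RNA polymerase I (polr1) and the nucleolar assembly factors (nop, nol, utp, rrp, tsr and similar). Of the 8793 genes with a single symbol on the array, 133 met this rule. By role, 70 act in translation, 53 in ribosome assembly, and 10 are regulators or have other functions, which the symbols take in without distinction.

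Whole larvae were profiled at 192 h post-fertilization (hpf) on an Affymetrix zebrafish array, with 1 array for each of 3 groups. Embryos were kept 30 to a cup with 100 ml of medium over a floor coated with 250 mg of oil emulsion from the Gulfport shoreline, collected after the Deepwater Horizon blowout. The early-exposed group met the emulsion from 0 to 48 hpf and then spent 144 h in clean medium. The late-exposed group met it from 48 to 96 hpf and then spent 96 h in clean medium. Control embryos were kept without emulsion. The sources used here give neither the strain of fish nor how many larvae went into an RNA sample. No cell type was sorted, so fewer cells of a type and less RNA per cell cannot be told apart.

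Ribosomes are assembled mainly in the nucleolus. RNA polymerase I makes a long precursor RNA, which small nucleolar ribonucleoproteins modify and which assembly factors fold and cut into the RNAs of the small (40S) and large (60S) subunits. Finished subunits are joined on an mRNA by initiation factors (eIFs), the peptide is extended by elongation factors (eEFs) with amino acids that tRNA synthetases have charged onto tRNAs, and a release factor ends it. Cells that grow or divide make many ribosomes. In zebrafish the pathway is known from mutants, among them those of pes (pescadillo) and of utp25, first described as digestive organ expansion factor, whose larvae have small digestive organs.

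All values are log2 expression values as deposited, and a difference is the first-named array minus the second. Since each group has a single array, no replicate spread exists, no test was run, and each value describes these 3 arrays. The nearest thing to an error is the scatter of different probe sets for the same gene around that gene's mean. Over 666 genes with several bright probe sets its SD was 0.11 for the early-exposed array against control, 0.16 for the late-exposed array against control and 0.13 between the exposed arrays. It leaves out the variation between clutches and RNA samples. Bright here means a mean over the 3 arrays at or above 7.21, the median of all values, which 116 of the 133 members reached. The other 17 members are called dim.

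Probe sets for bacterial spike-in RNAs read lower on the early-exposed array than on control by a mean of -0.50 (SD 0.12 over 18 probe sets), against 0.01 for the late-exposed array. Every early-exposed difference below is relative to the median gene. On a spike-in scale the median of the members would be 0.502, against 0.498 over all genes. On the late-exposed array dim genes read higher: genes below the median differed from control by a median of 0.06 and bright genes by -0.02. The liver, intestine and exocrine pancreas marker lists had mean log2 values from 9.79 to 10.9 on the 3 arrays, with single markers as low as 5.71, 6.29 and 6.66 in the same order of tissues.

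Most transcripts of the pathway lay within 0.32 of control after either exposure. After late exposure more members lay below control than above it, in every role group except the tRNA synthetases and the regulators and other roles. After early exposure the members were centred on control, with a median difference of 0.0013 and an interquartile range from -0.10 to 0.06. Of the 133 members 70 lay above control (49.1% of all genes did) and 63 below, which is 47.4%, against 50.9% of all genes. After late exposure the median was -0.058, against 0.0089 over all genes, and 87 members (65.4%) lay below control, against 48.1% of all genes, while 46 lay above, against 51.9% of all genes. Among bright genes the same comparison was 79 of 116 members (68.1%) against 54.9% of all bright genes. The shares of all genes set beside role groups below include dim genes, of which 37.9% were below control. Under a loess correction of the differences for brightness, 82 of the 133 members (61.7%) and 49.5% of all genes were below control, and the median of the members was -0.033.

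The 3 arrays were also ranked for each gene. The late-exposed array held the lowest of the 3 values for 75 members (56.4%), against 34.3% of all genes. For ribosome assembly members alone it was lowest in 34 of 53 cases, and in 37 of 70 for translation members. The early-exposed array was lowest for 24 members (18.0%), against 31.6% of all genes, and the control array for 34 (25.6%), against 34.1% of all genes. These ranks were not separated by brightness. Between the exposed arrays, late minus early, the members had a median of -0.047, against 0.014 over all genes. Of the 133, 87 were negative, against 46.6% of all genes, while 46 were positive, against 53.4%. Among bright genes 79 of 116 members were negative (68.1%), against 54.1% of all bright genes, with medians of -0.047 and -0.015. Under the loess correction it was 77 of 133 members (57.9%), against 49.8% of all genes.

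**Figure D1:**
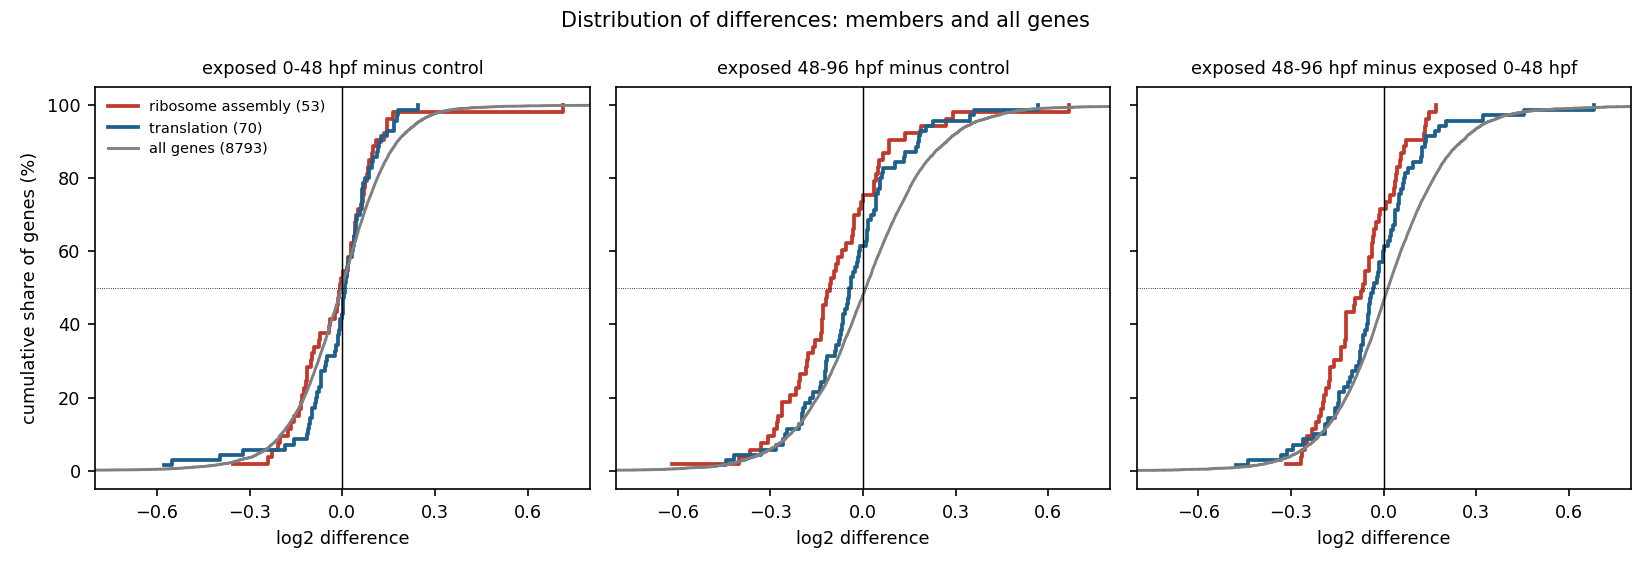
Cumulative share of genes (vertical axis, %) by log2 difference (horizontal axis) for ribosome assembly members, translation members and all 8793 genes, in the 3 comparisons. The assembly curve lies left of all genes in the middle panel, with a median of -0.11, and close to all genes in the left panel, with a median of -0.0072.

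Members were counted as higher or lower by size where the log2 difference reached 0.32. After early exposure 1 member was higher by that much (1.77% of all genes) and 4 were lower (3.18% of all genes). After late exposure 4 were higher (6.44% of all genes) and 10 were lower (4.86% of all genes). As shares of the members these are 0.752% and 3.01% after early exposure, and 3.01% and 7.52% after late exposure. Among bright genes after late exposure, 6 of 116 members were lower by that much (5.17%), against 5.48% of all bright genes. Of these 116 members 2 were higher (1.72%), against 4.58%. The larger share of lower members was therefore not seen among bright genes. Between the exposed arrays, 2 members, eif4e1b and eef1a1a, were higher on the late-exposed one (5.2% of all genes), and 3, eif4g3b, eef2a.1 and eif4g3a, were lower (3.29% of all genes). The members past that size in both windows were npm1b, higher, and eef1a1b, eif3jb and polr1a, lower; over all genes 0.785% were higher and 1.1% lower in both. Both windows share the control array, so a deviation of that array would appear in both.

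Larger differences were rare in the set and in the whole table. At 1.5-fold, 1 member was higher (0.273% of all genes) and 0 were lower (0.444%) after early exposure. After late exposure 1 was higher (0.887%) and 1 was lower (0.603%), and for late minus early 1 was higher (0.989%) and 0 were lower (0.409%). At 2-fold there was no member in any comparison. The shares of all genes there were 0.0682% higher and 0.0227% lower after early exposure, 0.227% and 0.0682% after late exposure, and 0.25% and 0.0455% for late minus early.

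**Figure D2:**
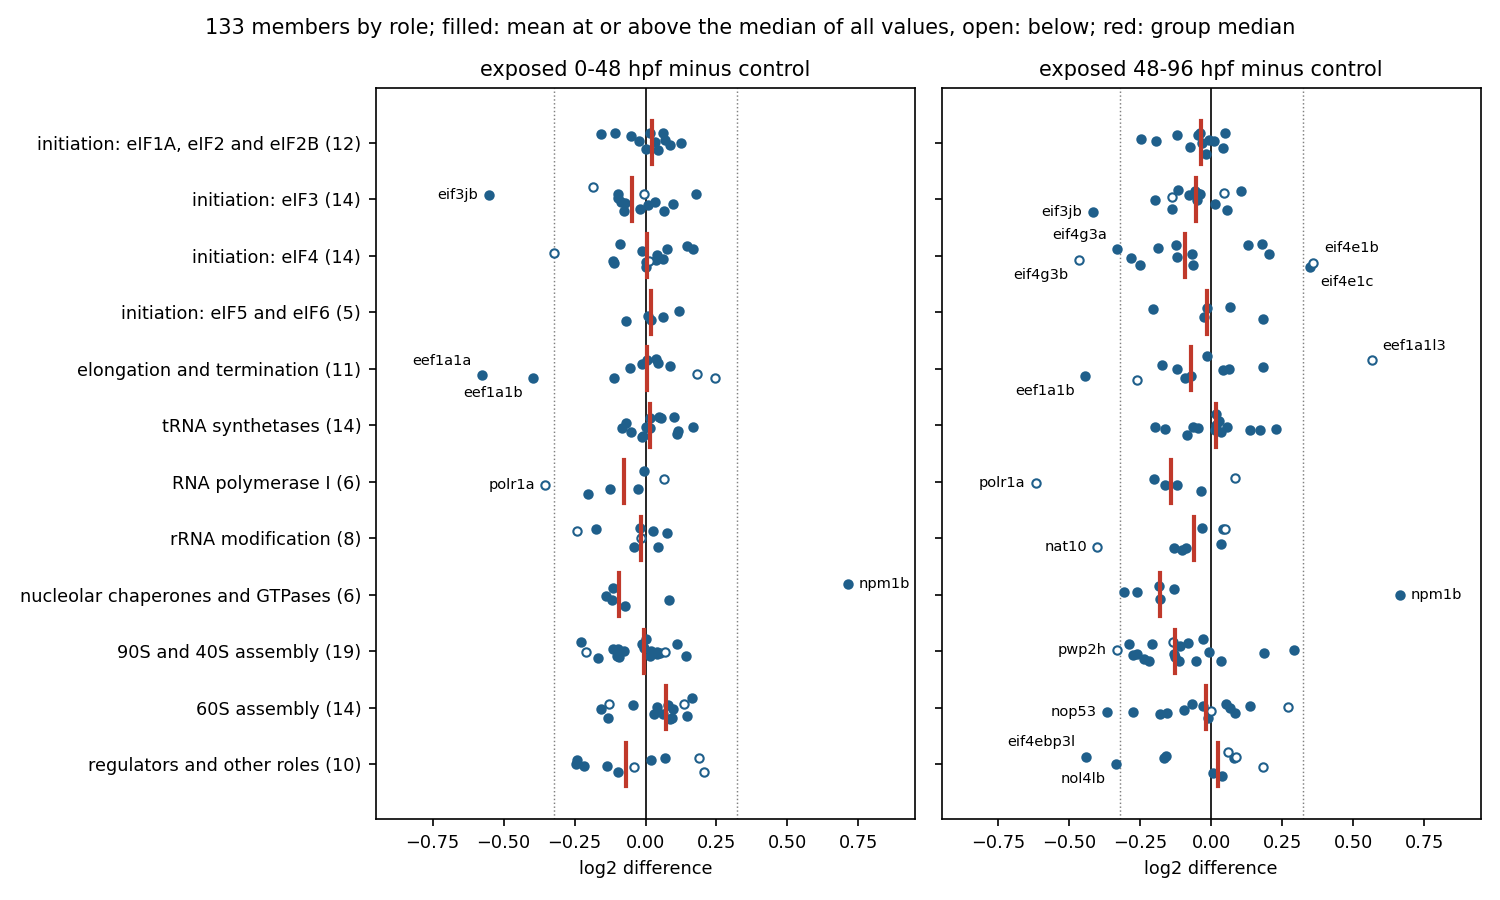
Log2 difference from control (horizontal axis) of each of the 133 members, in rows by role with the number of genes in brackets, after exposure from 0 to 48 hpf (left) and from 48 to 96 hpf (right). Filled points are bright members, open points dim ones, red bars group medians and dotted lines a log2 difference of 0.32 in either direction. Most rows are centred near 0 on the left. On the right the medians of RNA polymerase I (-0.14), nucleolar chaperones and GTPases (-0.18) and 90S and 40S assembly (-0.13) lie below it, and npm1b, eef1a1l3, eif4e1b and eif4e1c lie beyond the right dotted line.

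Ribosome assembly genes had a lower median than translation genes after late exposure. Of 53 such members, 40 (75.5%) were below control on the late-exposed array, with a median of -0.11. Of 70 translation members 43 were (61.4%), with a median of -0.04, and of all genes 48.1%. On the early-exposed array 28 of the 53 assembly members were below control (52.8%), against 50.9% of all genes, with a median of -0.0072. Of the 53, 4 were lower by 0.32 or more after late exposure, which is 7.55%, against 4.86% of all genes. These were the dim polr1a, nat10 and pwp2h and the bright nop53. Among all bright genes 5.48% were lower by that much, so the higher share of assembly members rests on dim genes. The count below control after late exposure varied between 37 and 40 of 53 over the other normalizations and choices of probe set. Among bright members it was 35 of 45 (77.8%), against 54.9% of all bright genes. The difference between the assembly and translation groups was not tested.

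RNA polymerase I transcribes the ribosomal RNA precursor, and 5 of its 6 measured subunits were below control in each window. Its largest subunit, polr1a, which holds the active site together with polr1b, read 6.72 after early exposure and 6.46 after late exposure, against 7.08 in control larvae. Both exposed arrays are below control and the late-exposed one is lowest, a difference of -0.35 and -0.62, or 1.28-fold and 1.53-fold lower. The polr1a probe set is dim on every array. Only 41 of all genes had a lower difference from control on the late-exposed array. The second largest subunit, polr1b, was at 7.25 in early-exposed and 7.41 in late-exposed larvae, against 7.45 in control larvae, so it was lowest after early exposure; its other, dim probe set differed by -0.05 and 0.23. For polr1g, a subunit of the polymerase's own heterodimer, the values were 7.77 on the early-exposed array and 7.57 on the late-exposed array, against 7.77 on control, and its other bright probe set read -0.21 and -0.29 from control. The subunit polr1c, shared with RNA polymerase III, differed by -0.03 and -0.16. The small subunit polr1h, also dim, was the exception above control (0.07 and 0.08). For comparison, 50.9% of all genes were below control after early exposure and 48.1% after late exposure. Of the subunits counted below control after early exposure, polr1g (-0.0072) and polr1c (-0.03) lay within the probe-set scatter.

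Genes of rRNA modification were near control as a group, with 5 of 8 below it in each window and medians of -0.02 (early) and -0.06 (late). The shares of all genes below control were 50.9% (early) and 48.1% (late). Fibrillarin (fbl), the methyltransferase of box C/D particles, read 10.19 after early exposure and 10.13 after late exposure, against 10.16 in control larvae. Its partner nop58 read 9.56 in early-exposed and 9.53 in late-exposed larvae, against 9.49 in control larvae, with a second bright probe set at -0.13 and -0.26 from control, so the probe sets disagree in sign. Dyskerin (dkc1), the pseudouridine synthase of box H/ACA particles, was at 7.80 on the early-exposed array and 7.86 on the late-exposed array, against 7.82 on control. None of these 3 core proteins differed from control by more than the probe-set scatter in the probe set used. The box H/ACA protein nhp2 differed by 0.04 and -0.13, the methyltransferase nop2 by -0.18 and -0.10, and the small-subunit RNA enzyme tsr3 by -0.04 and -0.09. In contrast nat10, which acetylates the small-subunit RNA, was lower on both exposed arrays, with 6.46 after early exposure and 6.30 after late exposure, against 6.70 in control larvae. That is 1.32-fold lower after late exposure, on a dim probe set.

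The nucleolar chaperones and GTPases held both the highest member of the set and a run of lower ones. Nucleophosmin, an abundant nucleolar histone and ribosome chaperone, has a pair of genes in zebrafish. The values of npm1b were 7.59 in early-exposed and 7.55 in late-exposed larvae, against 6.88 in control larvae. Both exposed arrays were higher than control, by 0.71 (1.64-fold) and 0.67 (1.59-fold), and they differed from each other by -0.05. The control value lies below 7.21, and the gene has 1 probe set. Of all genes, 9 had a larger positive difference after early exposure and 57 after late exposure.

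The abundant paralogue npm1a did not share this pattern: its main probe set read 11.29 on the early-exposed array and 11.02 on the late-exposed array, against 11.20 on control. Its second, dimmer probe set differed from control by 0.01 and 0.21, so the late-exposed direction of npm1a depends on the probe set. Nucleolin (ncl), which binds the precursor RNA, was at 11.63 after early exposure and 11.59 after late exposure, against 11.77 in control larvae, below control in both windows. The GTPases gnl2, gnl3 (nucleostemin) and gnl3l, of which gnl2 and gnl3 act on the large-subunit precursor, were below control on both exposed arrays, by -0.07, -0.12 and -0.11 after early exposure and -0.26, -0.13 and -0.31 after late exposure. Thus in the probe sets used, npm1b apart, the other 5 genes of this group were below control after late exposure. All 6 read lower on the late-exposed than on the early-exposed array. For late minus early, gnl3 (-0.01), ncl (-0.04) and npm1b (-0.05) lay within the probe-set scatter, and the second npm1a probe set read 0.20. Of all genes, 48.1% were below control after late exposure and 46.6% read lower on the late-exposed than on the early-exposed array. Of all bright genes these shares were 54.9% and 54.1%.

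The factors of the 90S particle and the small subunit were also mostly on one side of control after late exposure. Of 19 members, 16 were below control after late exposure (48.1% of all genes), with a median of -0.13. After early exposure 10 were below (50.9% of all genes), with a median of -0.0058. The U3 particle protein rrp9 differed by 0.11 and -0.11. Most are subunits of the processome, the particle that forms on the precursor as it is made. The dim pwp2h read 7.08 in early-exposed and 6.96 in late-exposed larvae, against 7.29 in control larvae. The bright utp20 read 7.44 on the early-exposed array and 7.34 on the late-exposed array, against 7.61 on control. The gene nol10, also bright, read 7.77 after early exposure and 7.60 after late exposure, against 7.87 in control larvae. These 3 genes have the order control, early, late from high to low. The escort of a small-subunit protein in yeast, tsr2, read 8.37 in early-exposed and 8.31 in late-exposed larvae, against 8.60 in control larvae, lower on both exposed arrays. By contrast nop14 was higher in both windows, at 8.33 on the early-exposed array and 8.48 on the late-exposed array, against 8.19 on control, and so was rrp7a, at 7.94 after early exposure and 8.08 after late exposure, against 7.89 in control larvae. The gene utp25, named for its digestive organ phenotype, read 7.63 in early-exposed and 7.66 in late-exposed larvae, against 7.63 in control larvae, within 0.03 of control.

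Of 14 large-subunit assembly factors, 10 were above control after early exposure (49.1% of all genes) and 4 below it, with a median of 0.07. After late exposure 5 were above (51.9% of all genes) and 9 below, with a median of -0.02. The lowest was nop53, which links the large-subunit precursor to the RNA exosome, at 10.32 on the early-exposed array and 10.11 on the late-exposed array, against 10.48 on control. It was lower on both exposed arrays and 1.29-fold lower on the late-exposed one. The RNA kinase nol9 was near control after early exposure and lower after late exposure, at 7.86 after early exposure and 7.55 after late exposure, against 7.82 in control larvae. The genes of the PeBoW complex, needed to mature the large-subunit RNA, lay within 0.14 of control in the probe sets used. There pes differed by -0.13 and -0.10, bop1 by 0.08 and 0.14, and wdr12 by 0.06 and -0.01. A further bright probe set of bop1 read 0.11 and 0.28 from control. Its dim probe sets read -0.21 and 0.02 after early exposure and -0.11 and 0.02 after late exposure. The large-subunit factor nip7 differed by -0.04 and -0.18. In this group nop16 and rrs1 were above control after early exposure, by 0.16 and 0.15, and not after late exposure (-0.07 and -0.03). For rrs1 only the early-exposed value (7.34) is above 7.21, with 7.17 after late exposure and 7.20 in control larvae. It thus counts as bright only through the array where it is highest. The highest after late exposure was the dim nol12, a nucleolar RNA-binding protein, at 0.27.

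Translation factors were among the brightest genes of the set and mostly flat. The main elongation factor genes eef1a1l1, eef1g, eef1b2 and eef2b lay between 13.28 and 14.51 on every array and within 0.18 of control. For eef1a1l1, which delivers charged tRNAs to the ribosome, the values were 14.48 in early-exposed and 14.51 in late-exposed larvae, against 14.45 in control larvae. The translocase gene eef2b read 13.81 on the early-exposed array and 13.81 on the late-exposed array, against 13.83 on control. Of these abundant transcripts eef1b2 differed most, by 0.09 after early and 0.18 after late exposure, the latter beyond the probe-set scatter. The others lay within 0.06 of control.

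Minor elongation factor genes differed more. The paralogue eef1a1a read 9.30 after early exposure and 9.76 after late exposure, against 9.88 in control larvae. It was 1.49-fold lower after early exposure and within the probe-set scatter of control after late exposure, and late minus early was 0.45. Of all genes, 41 had a lower difference after early exposure. The related eef1a1b was lower on both exposed arrays, at 7.21 in early-exposed and 7.16 in late-exposed larvae, against 7.61 in control larvae, by 1.32-fold and 1.36-fold. Only its control value lies above the median of all values, so eef1a1b counts as bright through the control array alone. On a spike-in scale its early-exposed difference would turn to 0.10, and late minus early of eef1a1a would be -0.056. The dim eef1a1l3 went the other way, with 5.44 on the early-exposed array and 5.77 on the late-exposed array, against 5.20 on control.

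Among initiation factors, the eIF2 group brings the first tRNA and is the target of stress kinases. It is counted here with its exchange factor eIF2B, eIF1A, eif2a and eif2d. Of these 12 genes, 4 were below control after early exposure (50.9% of all genes) and 9 after late exposure (48.1% of all genes). The alpha subunit gene eif2s1a read 8.38 after early exposure and 8.12 after late exposure, against 8.37 in control larvae. Its paralogue eif2s1b read 10.27 in early-exposed and 10.08 in late-exposed larvae, against 10.20 in control larvae. Both were lowest on the late-exposed array. The eIF1A gene eif1axb, which helps scan for the start codon, differed by -0.05 and -0.20 in the probe set used; of its further probe sets, both bright, the first differed by 0.00 and 0.08 and the other by -0.06 and 0.04. The 5 eIF2B subunits (eif2b1 to eif2b5) stayed within 0.16 of control in both windows. The eIF2 kinase eif2ak3 (PERK), which answers stress of the endoplasmic reticulum, was at 7.40 on the early-exposed array and 7.66 on the late-exposed array, against 7.65 on control; its further probe sets, both dim, read -0.30 and 0.22 after early exposure and so disagree in sign.

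The eIF3 complex, the largest initiation factor, was flat except for subunit j. Of its 14 genes, 9 were below control after early exposure (50.9% of all genes) and 10 after late exposure (48.1% of all genes). Of all bright genes 54.9% were below control after late exposure. The median was -0.05 in both windows. The gene eif3jb read 8.47 after early exposure and 8.60 after late exposure, against 9.02 in control larvae, 1.47-fold and 1.34-fold lower. Its paralogue eif3ja read 9.53 in early-exposed and 9.21 in late-exposed larvae, against 9.35 in control larvae, so the j genes went opposite ways after early exposure. Leaving out the j genes, the remaining 12 lay between -0.20 and 0.10 in both windows. Among these the scaffold subunit gene eif3s10 differed most after late exposure, at -0.20, and by -0.09 after early exposure.

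The eIF4 group, which recognises the mRNA cap and unwinds the leader, had an SD of 0.12 over its 14 genes after early exposure and of 0.26 after late exposure. The scaffold genes eif4g3a and eif4g3b were level with control after early exposure and lower after late exposure: eif4g3a read 7.39 on the early-exposed array and 7.06 on the late-exposed array, against 7.39 on control, and the dim eif4g3b read 6.71 after early exposure and 6.23 after late exposure, against 6.70 in control larvae. Other, dim probe sets of eif4g3a differed from control by 0.03 and -0.20 after late exposure. The cap-binding gene eif4e1c read 9.62 in early-exposed and 9.82 in late-exposed larvae, against 9.48 in control larvae, highest on the late-exposed array, but its second bright probe set differed from control by -0.10 and -0.07, the opposite sign. The helicase eif4a1a also had probe sets that disagreed, at -0.25 and 0.17 after late exposure. On the higher side after late exposure were eif4h, a helicase cofactor (0.17 and 0.20), and the cap-binding eif4e3 (0.001 and 0.18), whereas a further bright probe set read -0.24 and -0.13. The helicase eif4a2 was at 8.89 on the early-exposed array and 8.70 on the late-exposed array, against 8.98 on control with a single probe set. The dim eif4e1b, a relative of eIF4E best known from oocytes, completes the counts at -0.32, just short of the size counted, and 0.36.

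The eIF5 and eIF6 genes were near control as a group. Beside factors of subunit joining and its guard they take in eif5a and eif5a2, whose product acts mainly in elongation. Of these 5 genes, 1 was below control after early exposure (50.9% of all genes) and 3 after late exposure (48.1% of all genes). The joining GTPase eif5b read 9.52 after early exposure and 9.29 after late exposure, against 9.50 in control larvae, and a further bright probe set read 0.01 and -0.17 from control. The GTPase activator eif5 differed by -0.07 and 0.07. The anti-association factor eif6, which also serves in large-subunit assembly, was higher in both windows, by 0.12 and 0.18.

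Repressors of eIF4E were uneven. These small proteins hold eIF4E back when the kinase mTOR is inactive. The gene eif4ebp3l read 9.44 in early-exposed and 9.24 in late-exposed larvae, against 9.68 in control larvae, lower on both exposed arrays and 1.36-fold lower after late exposure. Its relative eif4ebp1 was within 0.08 of control in both windows, and eif4ebp2 differed by -0.14 and -0.17. Also lower by more than 0.32 after late exposure was nol4lb (-0.34), which the prefix takes in and for which no ribosomal role is given here.

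**Figure D3:**
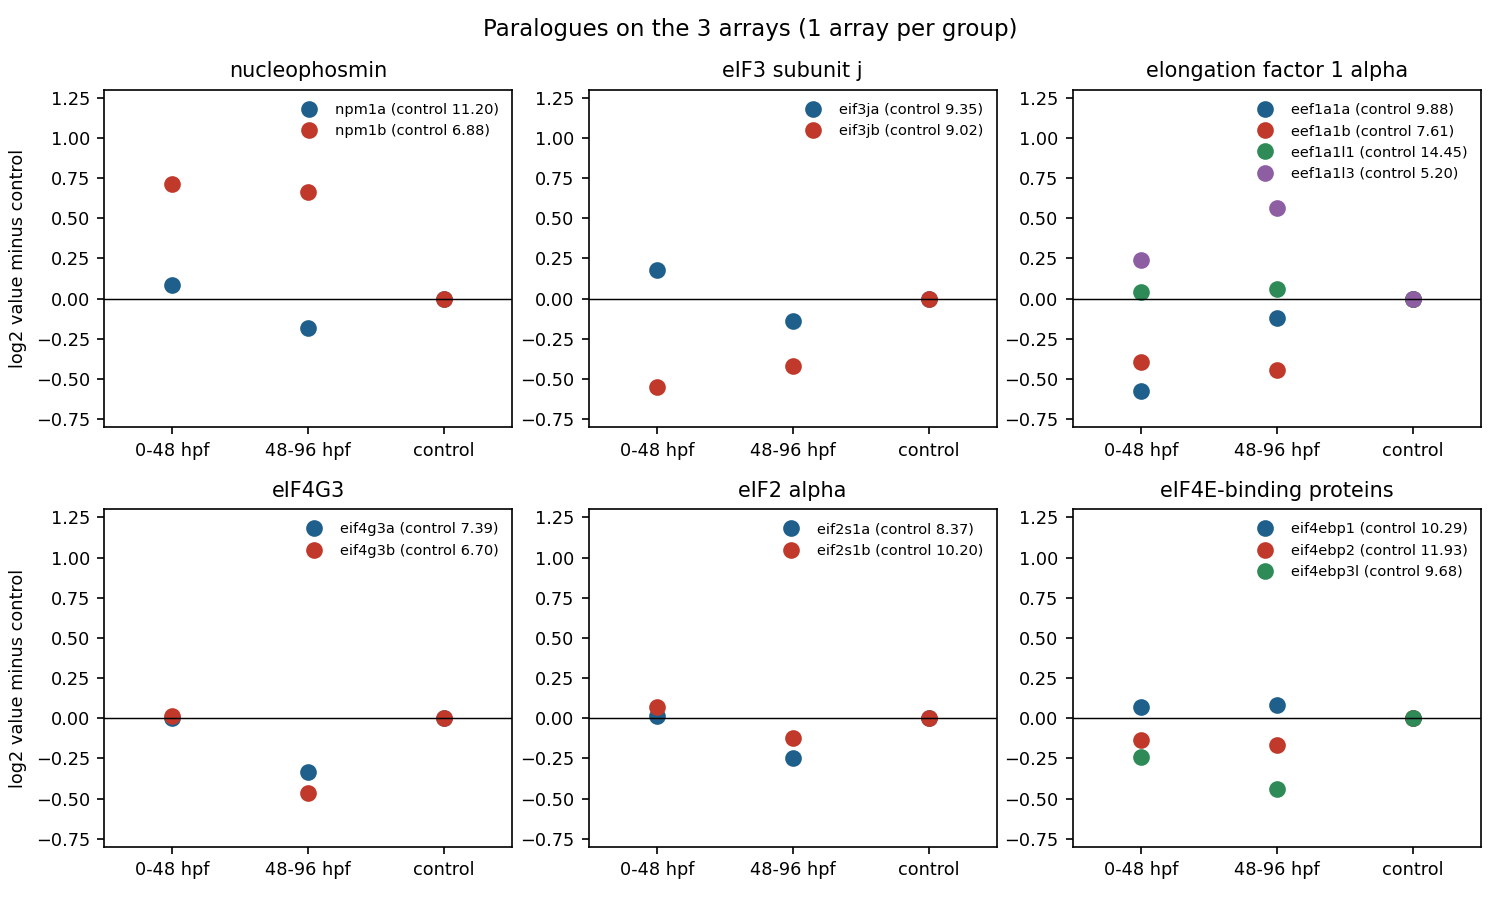
Log2 value minus that of the control array (vertical axis) for paralogues of 6 translation and nucleolar families on the arrays of the early-exposed, late-exposed and control groups (horizontal axis), with the control level in the legend. The nucleophosmin paralogues lie apart on both exposed arrays, npm1b at 0.71 (early) and 0.67 (late) and npm1a at 0.08 and -0.18. Those of eIF3 subunit j lie on opposite sides of control after early exposure. The eIF4G3 genes lie together and are below control only on the late-exposed array.

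Of 14 tRNA synthetase genes, 9 were above control in each window (64.3%), against 49.1% of all genes after early exposure and 51.9% after late exposure, with medians of 0.02 in both. The largest differences were in nars1, the asparagine enzyme, at 10.37 on the early-exposed array and 10.43 on the late-exposed array, against 10.20 on control, and in mars1, the methionine enzyme, at 7.95 after early exposure and 7.80 after late exposure, against 8.00 in control larvae. The isoleucine enzyme iars1 differed by 0.05 and 0.17. The second probe set of mars1, which is dim (mean 4.29), gave 0.23 and 0.13 from control. No synthetase reached a difference of 0.32. The termination factor etf1b differed by 0.04 and -0.07, and its other bright probe set by 0.02 and -0.12.

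Other genes of the pathway, whose symbols the rule does not take, were read from a list. Of 63 further ribosome assembly genes measured out of 84 listed, 42 were below control after early exposure (median -0.06) and 41 after late exposure (median -0.06). Of all genes 50.9% and 48.1% were below control in the same windows. In this list 0 were higher by 0.32 in either window, against 1.77% of all genes after early exposure and 6.44% after late exposure. After early exposure 0 were lower by that much, against 3.18% of all genes. After late exposure 5 of the 63 were lower (7.94%), against 4.86% of all genes. These were mak16 (-0.45), esf1 (-0.42), wdr3 (-0.39), the dim noc2l (-0.39) and urb2 (-0.33). The large-subunit factor mak16 read 7.90 in early-exposed and 7.73 in late-exposed larvae, against 8.19 in control larvae, lower on both exposed arrays. As shares, 66.7% of the list and 52.8% of the assembly members were below control after early exposure, and 65.1% and 75.5% after late exposure; the difference between them was not tested. The RNA exosome trims precursor ends. Of its 8 measured genes, 3 were below control after early exposure (50.9% of all genes) and 4 after late exposure (48.1% of all genes). Its catalytic subunit exosc10 read 7.33 on the early-exposed array and 6.89 on the late-exposed array, against 7.45 on control, lowest after late exposure, while the ring subunit exosc9 read 7.39 after early exposure and 7.45 after late exposure, against 7.14 in control larvae, higher in both. The exosome cofactor mphosph6 differed by -0.14 and -0.24.

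Transcripts that usually accompany ribosome production were set beside these values. Of 9 genes of the Myc network, 7 were below control in each window (medians -0.09 and -0.06). Myc factors activate ribosome genes, but the 7 include mxd4 (-0.02 and -0.13) and mxi1 (-0.09 and -0.003), which oppose Myc. After late exposure only mych and mycn lay beyond the probe-set scatter of 0.16. The gene mych read 9.09 in early-exposed and 9.02 in late-exposed larvae, against 9.33 in control larvae. Of the same list mycn differed by -0.22 and -0.32, and odc1, the polyamine enzyme and a Myc target, by 0.23 and -0.06. Of 15 genes of DNA replication and mitosis, 5 were below control after early exposure (median 0.04) and 14 after late exposure (median -0.08). Beside this list and the Myc network, 50.9% of all genes were below control after early exposure and 48.1% after late exposure. For pcna, the sliding clamp of DNA replication, the values were 11.86 on the early-exposed array and 11.67 on the late-exposed array, against 11.85 on control. The replication helicase gene mcm6 differed by 0.23 and -0.16, and mcm4 by -0.18 and -0.21. The mean log2 value of the 15 genes was 8.90 on the early-exposed array and 8.78 on the late-exposed array, against 8.88 on control, and the lowest of them on any array was 7.09. Proliferation genes were thus below control on the same array as the assembly genes, and their part in that result was not tested.

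**Figure D4:**
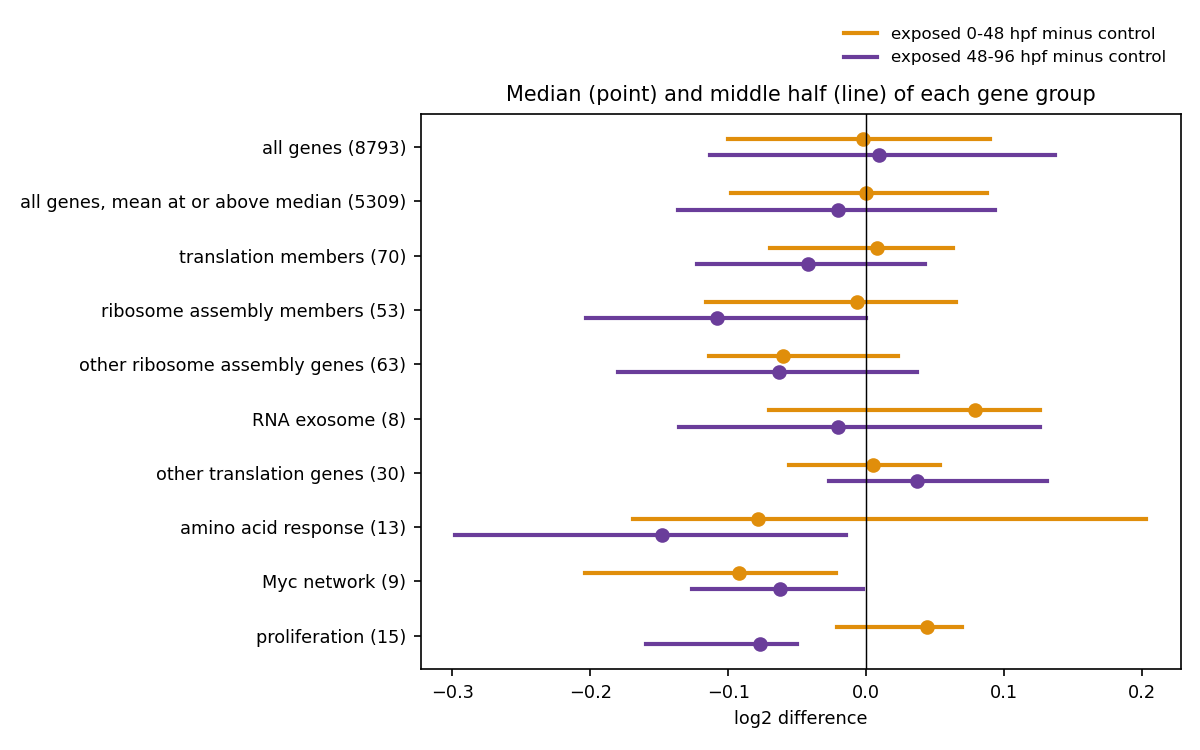
Median (point) and interquartile range (line) of the log2 difference from control (horizontal axis) for the members and for lists of related genes, with the number of genes in brackets; exposure from 0 to 48 hpf is drawn above exposure from 48 to 96 hpf in each row. Proliferation genes have a median of 0.04 after early and -0.08 after late exposure, and ribosome assembly members -0.0072 and -0.11.

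Tissue markers had other patterns. Of all genes 50.9% were below and 49.1% above control after early exposure, and 48.1% and 51.9% after late exposure. Exocrine pancreas markers, from a tissue that makes much protein, were below control in 15 of 16 cases after early exposure (median -0.56) and in 8 of 16 after late exposure (median 0.0021), with mean log2 values of 10.1 on the early-exposed array and 10.7 on the late-exposed array, against 10.7 on control. Their lowest value on any array was 6.66. For the members the median difference was 0.0013 after early exposure and -0.058 after late exposure. Liver markers were above control in 12 of 14 cases in both windows (medians 0.35 and 0.17). Their differences ran from -0.15 to 1.99 after early exposure and from -0.03 to 0.82 after late exposure. The list includes fibrinogen, complement and hemopexin genes, and whether it follows the amount of liver was not tested. Intestine markers were above control in 3 of 10 cases after early exposure (median -0.07) and in 6 of 10 after late exposure (median 0.06). The part of tissue composition in the members' values was not tested.

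Repeat measurements within the set show how far single values can be trusted. Of the 133 members, 23 had several probe sets and 16 had several bright ones. All bright probe sets of a gene had the same sign in 6 of 16 genes for the early-exposed array against control, in 9 of 16 for the late-exposed array against control, and in 11 of 16 between the exposed arrays. The widest gap against control was 0.43, in eif4a1a after late exposure. Among the members past 0.32 against control, only eif4e1c and eif4g3a had more than 1 probe set, so npm1b, eif3jb, polr1a, eef1a1a and eef1a1b each rest on a single probe set.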

How the data were processed

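The 3 arrays, 1 per group, hold 15617 probe sets. Per the submitters' processing notes the authors used RMA, and the deposited numbers are on its log2 scale. The sources used here do not give its software or version. Probe sets were named from the platform annotation of 2016, in which 10802 had 1 symbol. All 133 members matched a RefSeq gene (assembly GRCz12tu) by Entrez ID. The probe set with the highest mean over the 3 arrays stood for its gene, and no expression filter was applied. Python 3.11.15 with pandas 2.3.3 and statsmodels 0.14.6 gave the differences, medians and counts, tested on simulated data. Without replicates no p-value was computed, and the number of arrays limits the precision.

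Counts by size used a log2 difference of 0.32. Bright members are named where they are among the 8 highest or 8 lowest against control in either window, the 5 highest or lowest between the exposed arrays, or the 3 most changed of a role, beside a fixed list of 11 genes, of which nop56 was not analysed here. Other members are named to complete a count, a complex or a paralogue family. The members, lists and roles were chosen with earlier results of these data known, and dim or completing members after their values were seen. Sequences were not used here. Alternatives were 4 normalizations, 3 filters, 2 choices of probe set, other folds and a set without regulators. Tissue markers are given as lists, not gene by gene.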

Additional observations from a re-analysis of the deposited data

How the results depend on the processing

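Counts and medians were recomputed under each alternative, and 67 of 102 such values stayed within 1.5 times the count or 0.02 of the median. Scaling on spike-ins moved the early-exposed array as a whole: the median of the members was 0.502 against control and -0.557 for late minus early, 120 members were higher by 0.32 (log2) or more and 0 lower than control after early exposure, and 0 were higher and 127 lower for late minus early. The medians of all genes were 0.498 and -0.496. By that size 88.0% of all genes were higher and 0.148% lower than control after early exposure. For late minus early 0.398% of all genes were higher and 83.8% lower. On that scale eef1a1a was at -0.056 for late minus early and eef1a1b at 0.10 after early exposure, both with the sign turned. Loess put the median at -0.033 for late exposure and -0.023 for late minus early. Median centring put late minus early at -0.073 with 5 members lower (4.26% of all genes).

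The other values that moved are counts, over fewer genes or at another fold. With bright genes alone (116 members), 2 members were higher (4.58% of all bright genes) and 6 lower (5.48%) after late exposure. For late minus early 1 was higher (3.88%) and 1 lower (3.88%). With the filter on the highest array (117 members), 2 were higher after late exposure (4.90% of all genes passing it). For late minus early 1 was higher (4.15%) and 1 lower (3.93%). At the 75th percentile (8.48, 66 members) 0 were higher (2.01% of all genes passing it) and 2 lower (3.39%) after early exposure. After late exposure 1 was higher (4.42%) and 3 lower (5.34%). For late minus early 1 was higher (4.24%) and 0 lower (4.42%). Without cross-hybridising probe sets (132 members) 1 was higher for late minus early (5.19% of all genes). At 1.5-fold 0 were lower after early exposure, 1 was higher and 1 lower after late exposure, and 1 higher and 0 lower for late minus early. At 2-fold all 6 counts were 0.

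Of 900 values of single genes, 778 moved by less than the scatter between probe sets, 120 by more, and 2 were counted as reversed. Not every change of sign was counted as reversed. Under spike-in scaling, late minus early of dkc1 turned from 0.05 to -0.46 and was counted among the 120. With that scaling the members below control after early exposure fell from 63 to 2 of 133, and the share of all genes from 50.9% to 0.83%. The share of members below control after late exposure, recomputed as an alternative chosen after seeing the data, ran from 60.2% to 68.4%, and that of assembly members from 69.8% to 83.3%, the highest over 12 genes, while that of all genes ran from 47.7% to 57.2%. At the 75th percentile it was 66.7% of members against 57.2% of all genes. No paired analysis was possible because each group has 1 array, and for the same reason none could be left out.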

Other observations

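Genes of the amino acid response, which the factor Atf4 drives when eIF2 is phosphorylated, numbered 13, and 12 read lower on the late-exposed than on the early-exposed array, where 46.6% of all genes did (median -0.15). Of all bright genes 54.1% did. Against control, 8 of the 13 were below after early exposure (median -0.08) and 10 after late exposure (median -0.15). Of all genes 50.9% and 48.1% were below control in these windows. The transcription factor cebpb, also a gene of inflammation, read 10.20 after early exposure and 9.72 after late exposure, against 9.60 in control larvae. The amino acid transporter subunit slc3a2b read 10.58 and 10.34 on the same exposed arrays, against 10.75 on control, and the mitochondrial folate enzyme mthfd2 read 8.61 and 8.46, against 8.77.

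Translation genes outside the symbol rule, a list of 30 that includes cytosolic and mitochondrial tRNA synthetases, release and recycling factors and poly(A)-binding partners, lay slightly above control after late exposure: 12 of 30 were below it, with a median of 0.04. Over all genes 48.1% were below control on that array, with a median of 0.0089. After early exposure 14 of 30 (46.7%) were below, against 50.9% of all genes, with a median of 0.0046. The largest differences among bright genes of the list were in paip1, a partner of the poly(A)-binding protein (-0.27 after late exposure), aimp1a, a scaffold of the tRNA synthetase complex (0.23 after early exposure), and abcf2a (0.21 after early exposure).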
